A study of Homo sapiens with 12 samples.

Results

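Transcript levels of 10 inflammatory mediators were followed in a bone-tropic breast cancer line with and without GLI2 editing and paclitaxel. The genes were taken by symbol from the 25049 genes of the count table: the chemokines CXCL1, CXCL2, CXCL3, CXCL8 and CCL20, the cytokines IL6, LIF, IL1A and IL1B, and the enzyme gene PTGS2. All 10 were in the table, and 9 had enough counts to enter the test of 21974 genes. IL1A did not, and its counts are given instead.

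The cells were MDA-MB-231b, a derivative of the established human triple-negative line MDA-MB-231 that was selected by passage through bone marrow of athymic nude mice. Per the series text, they carried lentiviral CRISPR-Cas9 with a guide RNA either against the transcription factor gene GLI2 (labelled GLI2_KO) or with no target (labelled WT), so the WT controls were also transduced. The sources do not give whether the GLI2 KO line is 1 clone or a pool. Cells of each genotype received 50 nM paclitaxel, a taxane that stabilises microtubules, or its solvent DMSO for 2 days, which gave 4 groups of 3 samples: WT in DMSO, WT in paclitaxel, GLI2 KO in DMSO and GLI2 KO in paclitaxel. The series asks how GLI2 bears on the response to paclitaxel. The labels do not state that samples of a group were separate cultures. The p-values thus reflect no more than the spread of these samples, and that spread may be technical.

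Each sample had 83230948 to 109018776 counts in all. At that depth 3 counts equal 0.0272 to 0.0385 CPM, which are counts scaled to library size with TMM factors and the unit of all levels here. Paclitaxel samples had 24923 to 24985 genes with at least 1 count and DMSO samples 23712 to 24125. GLI2 was at 10.8 ± 0.54 CPM (SD, n = 3) in WT and 9.20 ± 0.92 CPM in GLI2 KO cells in DMSO, and at 5.68 ± 0.72 and 4.16 ± 0.21 CPM in paclitaxel, so GLI2 transcripts were present in all 12 libraries. Gene counts do not show whether the protein was lost. Markers of the line were abundant, with VIM at 1865 to 2923 CPM as group means. PGR, which encodes the progesterone receptor, 1 of the receptors that triple-negative tumours are defined by lacking, had 1 and 2 counts in the WT groups but 640 and 243 in the GLI2 KO groups. In each group 1 library lay furthest from its nearest replicate over all genes: library 5 in WT DMSO, 6 in WT paclitaxel, 11 in GLI2 KO DMSO and 12 in GLI2 KO paclitaxel.

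CXCL1, CXCL2, CXCL3 and CXCL8 are ELR-type CXC chemokines that attract neutrophils through the receptors CXCR1 and CXCR2, and CCL20 acts on CCR6. IL-6 and LIF signal through the shared receptor chain gp130 to STAT3, while IL-1 alpha and IL-1 beta act through IL1R1 and induce many of the other genes of the group. PTGS2 encodes cyclooxygenase-2, which makes the precursor of prostaglandin E2. In breast cancer that has reached bone, IL-6, CXCL8, LIF and prostaglandin E2 are known for their effects on osteoblasts and osteoclasts, and NF-kB, AP-1 and C/EBP factors are textbook regulators of these genes.

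On GRCh38 (GENCODE 29), the 4 CXC genes lie close together on chromosome 4: CXCL8 at chr4:73740506-73743716 and CXCL1 at chr4:73869393-73871242 on the plus strand, CXCL3 at chr4:74036589-74038807 and CXCL2 at chr4:74097035-74099293 on the minus strand. IL1A (chr2:112773915-112784590) and IL1B (chr2:112829751-112836903) are neighbours on chromosome 2, which also holds CCL20 (chr2:227805739-227817564). IL6 is at chr7:22725884-22732002, LIF at chr22:30240447-30246851 and PTGS2 at chr1:186671791-186680427. All are protein-coding, and the counts sum over their exons. IL6 shares 20.7% of its exon bases with STEAP1B and an antisense gene, and LIF 6.73% with antisense genes, so some of their counts could be shared.

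The bases just before the RefSeq start sites are printed with matches to recognised motifs. Whether these motifs bear on the levels was not tested. Each is given 5′ to 3′ on the strand of the gene, ends at the base before the start, and comes from RefSeq's table for GRCh38.p14. Capitals mark matches to the kappaB consensus or its 9-base core, AP-1 (TGANTCA) or C/EBP (TTGCNNAA), all searched on both strands. The intervals are chr4:73869293-73869392 for CXCL1, chr4:74099196-74099295 for CXCL2, chr4:74038690-74038789 for CXCL3, chr4:73740419-73740568 for CXCL8, chr2:227813742-227813841 for CCL20, chr7:22727030-22727199 for IL6 and chr1:186680424-186680573 for PTGS2.
CXCL1: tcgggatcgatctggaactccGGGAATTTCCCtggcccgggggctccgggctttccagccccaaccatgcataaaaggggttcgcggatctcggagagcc
CXCL2: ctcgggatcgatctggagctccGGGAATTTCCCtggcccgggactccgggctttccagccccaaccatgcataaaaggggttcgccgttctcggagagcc
CXCL3: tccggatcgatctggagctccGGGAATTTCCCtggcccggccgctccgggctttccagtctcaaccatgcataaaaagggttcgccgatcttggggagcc
CXCL8: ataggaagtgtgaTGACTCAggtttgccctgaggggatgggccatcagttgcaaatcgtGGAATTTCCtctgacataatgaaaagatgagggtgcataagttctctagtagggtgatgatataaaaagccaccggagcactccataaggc
CCL20: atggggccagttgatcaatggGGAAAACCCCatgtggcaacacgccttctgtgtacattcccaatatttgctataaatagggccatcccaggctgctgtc
IL6: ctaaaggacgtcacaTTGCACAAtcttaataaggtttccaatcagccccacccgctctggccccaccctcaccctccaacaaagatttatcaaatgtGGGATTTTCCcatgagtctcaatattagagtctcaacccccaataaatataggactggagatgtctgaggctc
PTGS2: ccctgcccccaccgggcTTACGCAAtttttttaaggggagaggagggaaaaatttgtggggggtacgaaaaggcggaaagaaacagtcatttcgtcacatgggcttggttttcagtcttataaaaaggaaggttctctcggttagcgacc

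CXCL1, CXCL2 and CXCL3 carried the same 11-base kappaB match at nearly the same distance from the start, and CXCL8 carried its 9-base core beside an AP-1 match. IL6 and CCL20 each had a different kappaB match, and IL6 and PTGS2 each a C/EBP match. The search covered the 250 bases before each RefSeq start. There the kappaB consensus was found in 5 of the 9 genes with an entry (CXCL1, CXCL2, CXCL3, IL6 and CCL20). It was also found in 5.21% of 35116 promoter entries of all genes. The core GGAATTTCC, which overlaps the consensus and was searched after the sequences had been read, was found in CXCL1, CXCL2, CXCL3 and CXCL8 and in 0.413% of promoters. AP-1 matches were found in CXCL8 and IL1A (6.57% of promoters) and C/EBP matches in 4 of the 9 (9.05%). The cyclic-AMP element TGACGTCA (1.65%) and the GLI recognition core GACCACCC (0.849%) were found in none of the 9. These are matches of letters within 1 window.

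The likeness of the 3 GRO chemokines also limits how their counts can be read. In the 100 bases before the start, CXCL1 shared 94.1% of aligned bases with CXCL2 and 90.0% with CXCL3, and CXCL2 shared 89.1% with CXCL3, against 43.0% to 45.3% between any of them and CXCL8. Their coding sequences shared 90.7% to 94.4%, and the longest identical run between their transcripts was 97 bases, for CXCL2 and CXCL3. Reads from CXCL1, CXCL2 and CXCL3 could therefore be split between them by the counting, and the separate values of these 3 genes are uncertain to that extent.

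Per kilobase of exon, the 10 genes spanned a wide range of levels. LIF was the highest in all 4 groups, at 15.9 to 17.7 CPM per kb as group means, and IL1A the lowest. In WT cells in DMSO, CXCL8 followed at 3.55 CPM per kb, then PTGS2 at 1.43, CXCL2 at 0.819, IL6 at 0.288 and CXCL3 at 0.214, while CCL20 (0.0459), CXCL1 (0.0336) and IL1B (0.0176) were at few counts. The ranges of PTGS2 and CXCL2 overlapped, and those of IL6 and CXCL3, as did those of CCL20, CXCL1 and IL1B. In GLI2 KO cells in DMSO the ranges of PTGS2 (1.34) and CXCL8 (1.10) overlapped. In GLI2 KO cells in paclitaxel IL6 (1.43) stood above CXCL2 (1.01) with no overlap, the reverse of WT cells in paclitaxel (0.834 and 1.69). LIF alone took 68.9% to 84.5% of the summed CPM of the 10 genes, and the sum of the other 9 was 12.5 to 22.7 CPM in WT DMSO samples, 19.1 to 25.6 in WT paclitaxel, 6.90 to 15.7 in GLI2 KO DMSO and 20.5 to 38.1 in GLI2 KO paclitaxel.

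**Figure D1:**
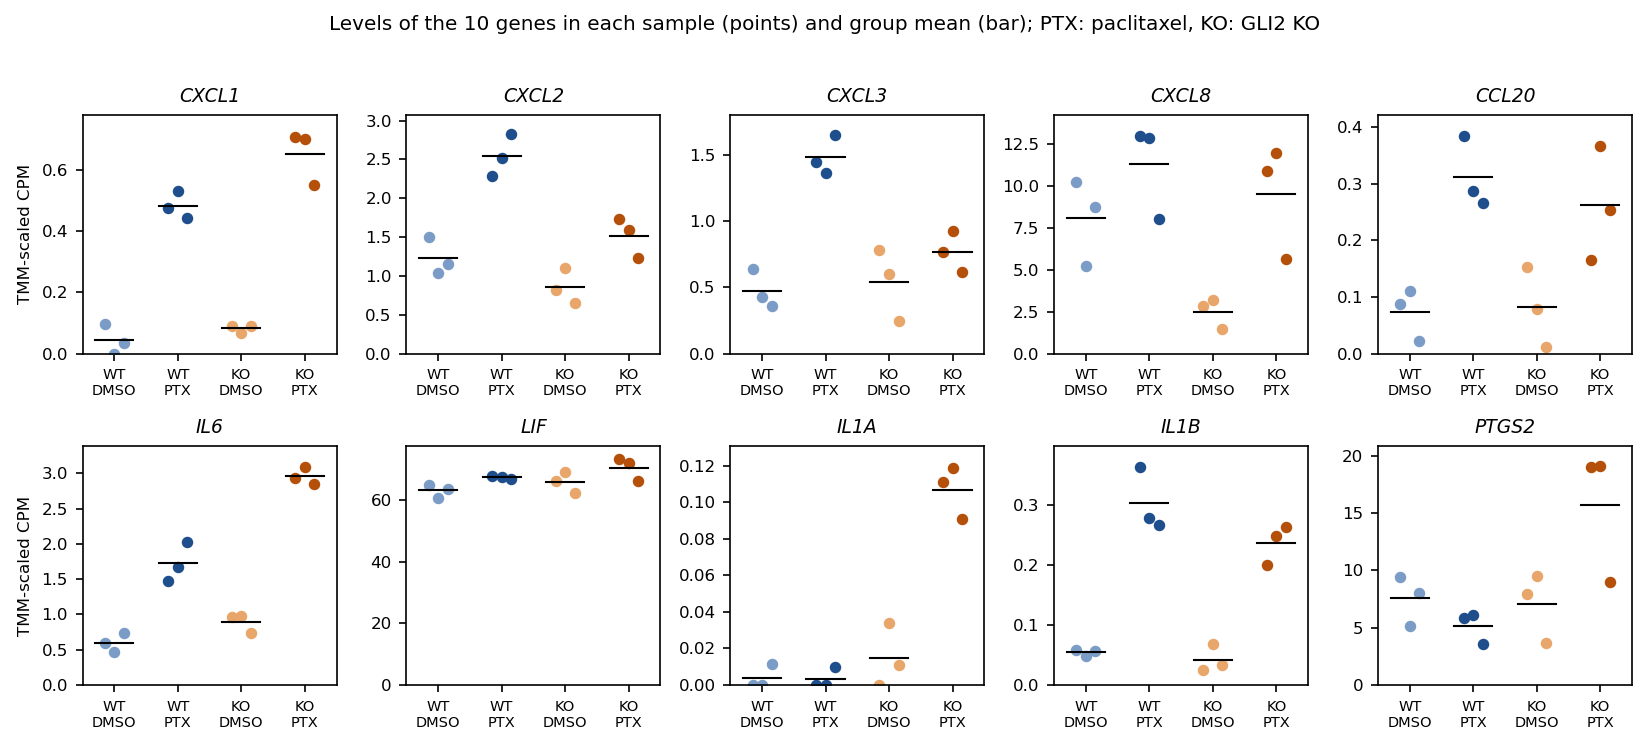
Level of each gene (y axis, TMM-scaled CPM from 0) in every sample (points) of the 4 groups (x axis), with the group mean as a bar. CXCL1, CXCL2, CCL20, IL6 and IL1B are higher in every paclitaxel sample than in any DMSO sample of the same genotype. How many of all tested genes separate in this way was not counted. IL1A is at 10 to 11 counts in GLI2 KO paclitaxel samples and 0 to 3 counts elsewhere.

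Paclitaxel was followed by higher levels of most of these genes in both genotypes. In WT cells 7 of the 9 tested genes rose (CXCL1, CXCL2, CXCL3, CCL20, IL6, LIF and IL1B), 0 fell, and CXCL8 and PTGS2 did not pass. Among all tested genes 34.6% rose and 32.1% fell in that comparison. In GLI2 KO cells 8 of 9 rose, 0 fell and CXCL3 did not pass, against 33% higher and 32.2% lower among all genes. The median log2 fold change of the 9 genes was 1.53 in WT and 1.72 in GLI2 KO cells, against 0.03 and 0.02 over all genes. The spread over all genes leaned upwards, with quartiles of -0.24 and 0.68 in WT and -0.25 and 0.58 in GLI2 KO cells. In these bulk samples a change in the number of cells that make a transcript and a change in the amount per cell cannot be told apart.

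Some markers of blood cells, which can make the same mediators, also rose with paclitaxel. Of 6 tested, 3 rose in WT and 5 in GLI2 KO cells and 0 fell, where 34.6% and 33% of all tested genes were higher. LYZ passed in neither genotype. Of 10 such markers 6 were measured, and their summed level was 0.881 to 1.03 CPM in WT DMSO, 2.35 to 2.65 in WT paclitaxel, 1.20 to 1.72 in GLI2 KO DMSO and 3.08 to 3.797 in GLI2 KO paclitaxel. CD14 or CSF1R was the most abundant in each group, and none of the 6 was at 0 in a whole group. In the same order, ITGAM was at 0.0657, 0.622, 0.0468 and 0.769 CPM. PTPRC, the pan-leukocyte gene CD45, was at 0.0477, 0.123, 0.271 and 0.691 CPM. AIF1, TYROBP and CD3E were among the listed markers without a row in the count table. The 4 measured fibroblast and osteoblast markers of 8 summed to 11.4 to 13.1, 17.0 to 18.3, 14.8 to 19.97 and 28.3 to 31.5 CPM, and the 4 measured endothelial markers of 5 to 2.33 to 2.96, 3.88 to 4.28, 0.941 to 1.27 and 2.53 to 2.83 CPM. Their part in the results was not tested.

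**Figure D2:**
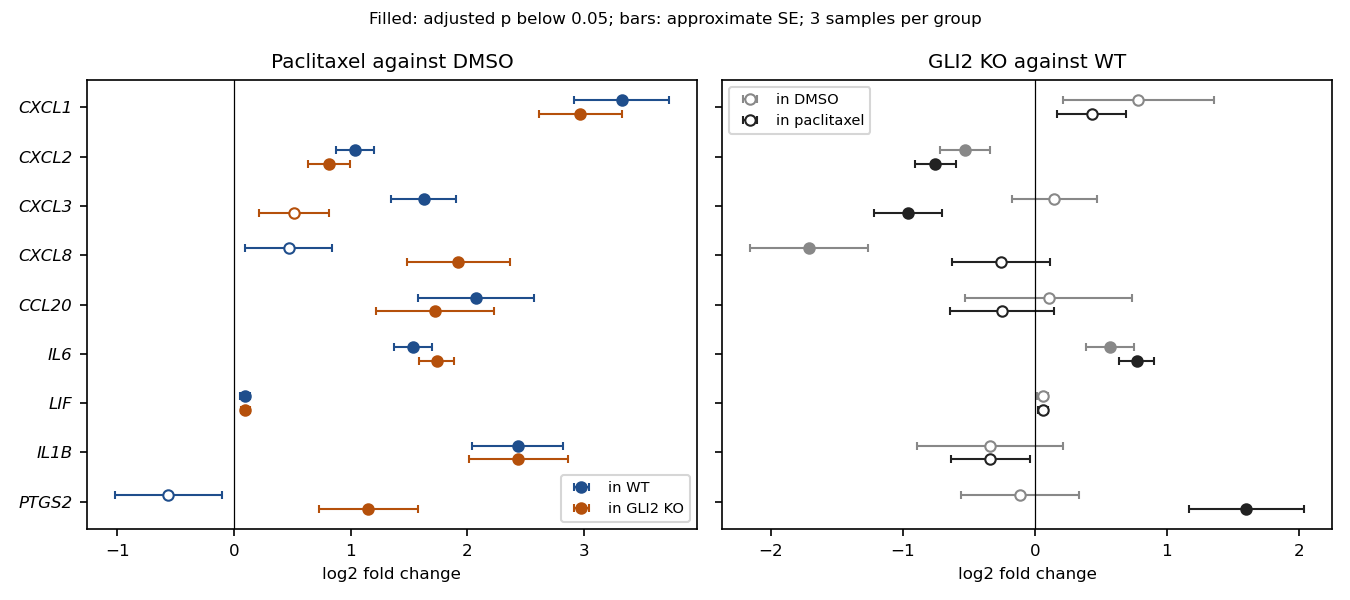
Log2 fold changes (x axis) of the 9 tested genes (y axis) for paclitaxel against DMSO in each genotype (left) and GLI2 KO against WT in each treatment (right). Points are estimates from 3 samples per group, bars approximate standard errors, and filled points have an adjusted p below 0.05. CXCL1 and IL1B show the largest estimates on the left, and PTGS2 and CXCL3 lie on opposite sides of 0 among the paclitaxel values on the right.

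CXCL1, the first of the GRO chemokines, went from the floor to a low but clear level. It was at 0.0966, 0 and 0.0339 CPM in the 3 WT DMSO samples and at 0.474, 0.532 and 0.444 CPM in WT paclitaxel, and the groups did not overlap. The log2 fold change was 3.32 ± 0.41 (edgeR, adjusted p = 1.13e-07). In GLI2 KO cells it was at 0.0897, 0.0680 and 0.0889 CPM in DMSO and 0.709, 0.701 and 0.553 CPM in paclitaxel, a change of 2.97 ± 0.36 (adjusted p = 8.25e-08), again without overlap. The WT estimate depends on few counts (13 in the DMSO group) and ranged from 2.81 (without WT DMSO replicate 2) to 4.67 (without WT DMSO replicate 1) over the fits that left out 1 library. The genotypes did not differ past the threshold in either treatment, at 0.78 ± 0.57 in DMSO (adjusted p = 0.300) and 0.43 ± 0.26 in paclitaxel (adjusted p = 0.189), although the GLI2 KO paclitaxel samples all lay above the WT ones. In DMSO the genotype difference passed when WT DMSO replicate 1, which held 10 of the 13 counts, was left out (2.14, adjusted p = 0.0226).

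CXCL2, the second GRO chemokine, rose with paclitaxel in both genotypes and was lower in GLI2 KO cells. Its level was 1.497, 1.04 and 1.15 CPM in WT DMSO, 2.28, 2.52 and 2.82 in WT paclitaxel, 0.820, 1.10 and 0.655 in GLI2 KO DMSO and 1.73, 1.60 and 1.23 in GLI2 KO paclitaxel. The paclitaxel groups lay wholly above the DMSO groups of the same genotype, and the log2 fold changes were 1.04 ± 0.16 (adjusted p = 6.21e-06) in WT and 0.81 ± 0.18 (adjusted p = 0.000442) in GLI2 KO cells. Between genotypes, 1 gene of the 9 rose and 2 fell in GLI2 KO cells in DMSO, where 22% of all genes were higher and 19.6% lower. In paclitaxel 2 rose and 2 fell, where 23.4% of all genes were higher and 22.2% lower. CXCL2 was among the lower ones in both, at -0.75 ± 0.16 in paclitaxel (adjusted p = 0.000356, no overlap) and -0.53 ± 0.19 in DMSO (adjusted p = 0.0266, overlapping samples). The DMSO difference did not pass when GLI2 KO DMSO replicate 1, GLI2 KO DMSO replicate 3 or WT DMSO replicate 1 was left out (-0.50 to -0.35, adjusted p = 0.0785 to 0.193).

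CXCL3, the third, was induced in WT cells and reached a lower level in GLI2 KO cells in paclitaxel. WT cells had 0.637, 0.428 and 0.361 CPM in DMSO and 1.45, 1.364 and 1.65 CPM in paclitaxel, a change of 1.62 ± 0.28 (adjusted p = 8.81e-05) without overlap. GLI2 KO cells had 0.782, 0.601 and 0.244 CPM in DMSO and 0.764, 0.927 and 0.616 CPM in paclitaxel, and these overlapped (0.51 ± 0.30, adjusted p = 0.146). In paclitaxel CXCL3 was lower in GLI2 KO than in WT cells by all samples, at -0.96 ± 0.26 (adjusted p = 0.00620), while in DMSO the values overlapped (0.15 ± 0.32, adjusted p = 0.760). The paclitaxel effect in GLI2 KO cells passed when GLI2 KO DMSO replicate 1 was left out (0.85, adjusted p = 0.0177) and with library totals as the scaling (0.69, adjusted p = 0.0494).

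The paclitaxel effect itself was compared between genotypes as a difference of log2 fold changes, and 0 of the 9 genes passed in either direction with edgeR, where 6.56% of all genes were higher and 6.93% lower. At an unadjusted p below 0.05 there were 3 of 9 (CXCL3, CXCL8 and PTGS2), against 26.2% of all genes. CXCL3 had a difference of -1.11 ± 0.42 (adjusted p = 0.0958), CXCL8 of 1.46 ± 0.58 (adjusted p = 0.157) and PTGS2 of 1.72 ± 0.63 (adjusted p = 0.122). DESeq2 called 2 of them, CXCL3 as lower (-1.11, adjusted p = 0.0306) and PTGS2 as higher (1.71, adjusted p = 0.0352). With edgeR the CXCL3 difference passed when GLI2 KO DMSO replicate 3 or WT DMSO replicate 1 was left out (-1.47 to -1.40, adjusted p = 0.000855 to 0.0482). For the other tested genes the difference was -0.35 ± 0.62 (CXCL1), -0.22 ± 0.25 (CXCL2), 0.20 ± 0.23 (IL6), -0.35 ± 0.75 (CCL20) and 0.00 ± 0.06 (LIF), and for IL1B it was 0.00, where the standard error cannot be computed reliably.

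CXCL8, interleukin-8, was lower in GLI2 KO than in WT cells in DMSO and at overlapping levels in paclitaxel. WT cells had 10.3, 5.204 and 8.76 CPM in DMSO and 13.003, 12.8 and 8.01 CPM in paclitaxel, which overlapped (0.47 ± 0.38, adjusted p = 0.304). GLI2 KO cells had 2.81, 3.22 and 1.47 CPM in DMSO and 10.9, 11.9 and 5.63 CPM in paclitaxel, where every paclitaxel sample was above every DMSO sample (1.92 ± 0.44, adjusted p = 0.00448). The genotype difference was -1.71 ± 0.45 in DMSO (adjusted p = 0.0144, no overlap) and -0.26 ± 0.37 in paclitaxel (adjusted p = 0.624, overlap). The DMSO difference missed the threshold when GLI2 KO DMSO replicate 3 or WT DMSO replicate 1 was left out (-1.49 to -1.43, adjusted p = 0.0530 to 0.0570), with its sign kept.

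PTGS2, cyclooxygenase-2, had its highest levels in GLI2 KO cells in paclitaxel. The 3 values there were 19.1, 19.1 and 9.02 CPM, against 7.99, 9.56 and 3.65 CPM in GLI2 KO DMSO, 9.46, 5.19 and 8.01 CPM in WT DMSO and 5.86, 6.08 and 3.59 CPM in WT paclitaxel. In paclitaxel all GLI2 KO samples were above all WT samples (1.60 ± 0.44, adjusted p = 0.0161), and in DMSO the genotypes overlapped (-0.11 ± 0.45, adjusted p = 0.877). The paclitaxel effect was 1.15 ± 0.43 in GLI2 KO cells (adjusted p = 0.0415, overlapping samples) and -0.56 ± 0.46 in WT cells (adjusted p = 0.309, overlapping samples). The call in GLI2 KO cells was marginal: it was lost in 8 of the 12 fits that left out 1 library (0.82 to 1.24, adjusted p = 0.0516 to 0.120; kept without GLI2 KO DMSO replicate 2, GLI2 KO paclitaxel replicate 3, WT DMSO replicate 2 or WT paclitaxel replicate 3), with limma-voom (adjusted p = 0.0545) and with a fit of those 2 groups alone (adjusted p = 0.112). The genotype difference in paclitaxel missed the threshold without GLI2 KO paclitaxel replicate 1, GLI2 KO paclitaxel replicate 2 or WT paclitaxel replicate 3 (1.39 to 1.44, adjusted p = 0.0509 to 0.0616).

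Much of the spread of CXCL8 and PTGS2 lay in the same libraries. In libraries 5, 6, 11 and 12, CXCL8 was at 0.487 to 0.620 and PTGS2 at 0.417 to 0.602 times the mean of the other replicates of the group. CXCL8, PTGS2 and LIF were lowest in these libraries in all 4 groups, as were 1028 of 21974 tested genes (4.68%). With those 4 libraries left out together, IL1A could also be tested, 8 genes rose and PTGS2 fell with paclitaxel in WT cells (-0.55 ± 0.08, adjusted p = 3.30e-07), and 3 differences of effect passed: PTGS2 (1.67 ± 0.11, adjusted p = 8.35e-14), CXCL8 (1.48 ± 0.11, adjusted p = 4.43e-14) and CXCL3 (-1.17 ± 0.32, adjusted p = 0.00691). The criterion for these libraries uses all genes, but it was settled after their low CXCL8 and PTGS2 values and the resulting calls had been seen, and it narrows the spread of those genes by construction, so these values are no independent support. Under a criterion tried before it, which left out the 3 libraries with the largest mean distance to their replicates (WT DMSO replicate 2 and GLI2 KO DMSO replicates 2 and 3), 6 genes rose in WT cells and 5 in GLI2 KO cells, among them IL1A (adjusted p = 0.0111), and 0 differences were higher and 1 lower. CXCL8, CCL20, LIF and PTGS2 no longer passed in GLI2 KO cells. That omission leaves GLI2 KO DMSO with 1 sample, replicate 1, which is assumed to vary like the other groups.

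Neighbouring library numbers each hold 1 DMSO and 1 paclitaxel sample of 1 genotype, although the labels do not say that these are pairs. Between such neighbours the ratio of paclitaxel to DMSO for PTGS2 was 0.642, 0.732 and 0.692 in WT and 2.39, 1.998 and 2.47 in GLI2 KO cells. For CXCL8 it was 1.25, 1.48 and 1.54 in WT and 3.89, 3.71 and 3.84 in GLI2 KO cells. These ratios of the genotypes did not overlap for either gene, and they were looked at after the values of the libraries had been seen.

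**Figure D3:**
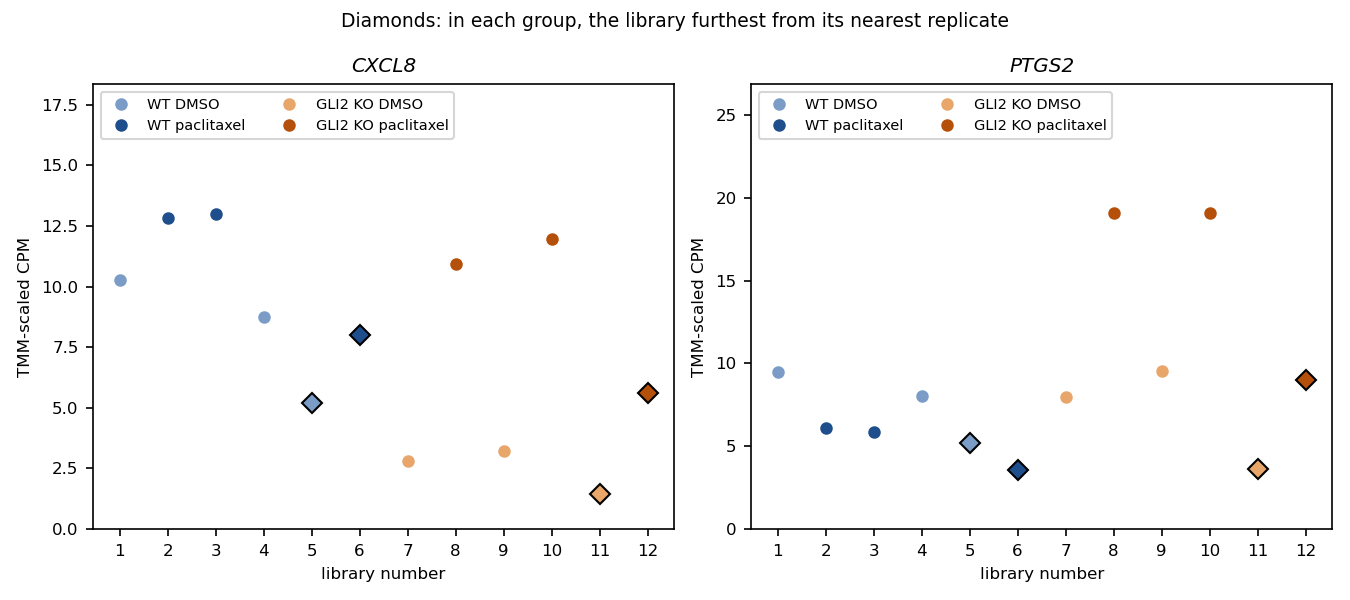
CXCL8 and PTGS2 levels (y axis, TMM-scaled CPM from 0) by library number (x axis), coloured by group. Diamonds mark libraries 5, 6, 11 and 12, in which both genes are the lowest of their group.

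CCL20, the ligand of CCR6, rose from near the floor in both genotypes. It was at 0.0869, 0.110 and 0.0226 CPM in WT DMSO and 0.384, 0.288 and 0.266 CPM in WT paclitaxel (2.07 ± 0.49, adjusted p = 0.000819, no overlap). In GLI2 KO cells it was at 0.154, 0.0794 and 0.0111 CPM in DMSO and 0.166, 0.366 and 0.254 CPM in paclitaxel (1.72 ± 0.50, adjusted p = 0.00486), where the lowest paclitaxel sample was just above the highest DMSO sample. The GLI2 KO estimate rests on 20 counts in DMSO and was 2.51 without GLI2 KO DMSO replicate 1 and 1.18 without replicate 3, both past the threshold. Genotypes overlapped in both treatments (0.11 ± 0.63 in DMSO and -0.25 ± 0.40 in paclitaxel).

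IL6, the gp130 cytokine, rose with paclitaxel in both genotypes and was higher in GLI2 KO than in WT cells. Its 3 values were 0.589, 0.464 and 0.734 CPM in WT DMSO, 1.47, 1.67 and 2.03 in WT paclitaxel, 0.961, 0.975 and 0.733 in GLI2 KO DMSO and 2.94, 3.09 and 2.85 in GLI2 KO paclitaxel. Every paclitaxel sample was above every DMSO sample, with changes of 1.53 ± 0.16 (adjusted p = 1.19e-08) in WT and 1.74 ± 0.15 (adjusted p = 2.00e-10) in GLI2 KO cells. In paclitaxel GLI2 KO cells had more IL6 than WT cells without overlap (0.77 ± 0.13, adjusted p = 3.09e-05). In DMSO the difference was 0.57 ± 0.18 (adjusted p = 0.0140) with overlapping samples, and it did not pass without GLI2 KO DMSO replicate 1, GLI2 KO DMSO replicate 2 or WT DMSO replicate 2 (0.43 to 0.52, adjusted p = 0.0501 to 0.0807).

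LIF, leukaemia inhibitory factor, was by far the most abundant and barely moved. It was at 65.0, 60.9 and 63.7 CPM in WT DMSO, 68.0, 67.7 and 66.8 in WT paclitaxel, 66.4, 69.0 and 62.2 in GLI2 KO DMSO and 73.3, 72.0 and 66.1 in GLI2 KO paclitaxel. The changes with paclitaxel were 0.09 ± 0.04 in WT (adjusted p = 0.0414) and 0.10 ± 0.04 in GLI2 KO cells (adjusted p = 0.0378), small next to the other members. Both calls were fragile. In WT cells 6 of the 12 fits that left out 1 library lost the call (GLI2 KO paclitaxel replicate 2, WT DMSO replicates 2 and 3 and the 3 WT paclitaxel replicates; adjusted p = 0.0531 to 0.217), as did DESeq2 (adjusted p = 0.0907). In GLI2 KO cells 8 of 12 lost it (GLI2 KO DMSO replicates 1 and 3, GLI2 KO paclitaxel replicates 1 and 2, WT DMSO replicates 2 and 3, and WT paclitaxel replicates 1 and 2; adjusted p = 0.05002 to 0.276), as did the fit without a filter on low counts (adjusted p = 0.0558). The genotype differences of 0.06 ± 0.04 in either treatment did not pass, but the one in DMSO passed without GLI2 KO DMSO replicate 3 (0.10, adjusted p = 0.0409) and the one in paclitaxel without GLI2 KO paclitaxel replicate 3 (0.11, adjusted p = 0.0264).

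IL1B, which encodes the secreted IL-1 beta, rose in both genotypes from levels of few counts. It was at 0.0579, 0.0489 and 0.0565 CPM in WT DMSO, 0.362, 0.277 and 0.266 in WT paclitaxel, 0.0256, 0.0680 and 0.0333 in GLI2 KO DMSO and 0.199, 0.248 and 0.263 in GLI2 KO paclitaxel. The log2 fold change was 2.43 ± 0.39 in WT (adjusted p = 5.78e-06) and 2.43 ± 0.42 in GLI2 KO cells (adjusted p = 2.03e-05), without overlap in either. In paclitaxel the GLI2 KO samples lay just below the WT samples, a difference of -0.34 ± 0.30 that did not pass (adjusted p = 0.385).

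IL1A, its neighbour on chromosome 2, was counted mainly in GLI2 KO cells in paclitaxel, with too few counts for the main test. It had 0, 0 and 1 counts in WT DMSO, 0, 0 and 1 in WT paclitaxel, 0, 3 and 1 in GLI2 KO DMSO and 10, 11 and 10 in GLI2 KO paclitaxel. Per library total, the GLI2 KO paclitaxel group had 29.5 times the WT paclitaxel group (31 against 1 count, 95% exact binomial interval 4.91 to 1201) and 7.65 times the GLI2 KO DMSO group (31 against 4, interval 2.71 to 29.8). These intervals cover counting error only. In the fit without a filter on low counts, GLI2 KO against WT in paclitaxel had an adjusted p of 0.000393 (0.00299 with DESeq2) and paclitaxel in GLI2 KO cells an adjusted p of 0.00388 (0.0199 with DESeq2), while the difference of the paclitaxel effect did not pass (adjusted p = 0.563).

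Genes around these mediators were taken as 9 lists of 137 genes. Counts in these lists stand beside shares of all tested genes. With paclitaxel 34.6% were higher and 32.1% lower in WT, and 33% and 32.2% in GLI2 KO cells. For GLI2 KO against WT 22% were higher and 19.6% lower in DMSO, and 23.4% and 22.2% in paclitaxel. Of the NF-kB subunits, their inhibitors and C/EBP factors, 12 of 14 rose with paclitaxel in WT and 12 in GLI2 KO cells and 0 fell. Their median log2 fold change was 0.45 in WT and 0.51 in GLI2 KO cells, against 1.53 and 1.72 for the members. Both list medians lay below the upper quartile of all genes (0.68 and 0.58). TNFAIP3, the NF-kB feedback inhibitor A20, rose by 2.40 ± 0.17 in WT and 2.64 ± 0.16 in GLI2 KO cells. RELB, a subunit of the non-canonical pathway, rose by 0.89 ± 0.13 and 2.25 ± 0.14, and NFKBIE, an inhibitor of NF-kB, by 1.08 ± 0.08 and 1.27 ± 0.07. In paclitaxel RELB was 0.95 ± 0.12 and TNFAIP3 0.75 ± 0.15 higher in GLI2 KO than in WT cells. Between genotypes 5 of the 14 were higher and 4 lower in DMSO, and 7 higher and 4 lower in paclitaxel. The RELB value in DMSO, -0.42 ± 0.15 (adjusted p = 0.0449), lost its call without any of 8 single libraries (GLI2 KO paclitaxel replicates 1 and 3 and the 6 WT libraries; adjusted p = 0.0566 to 0.139). The TNFAIP3 value in DMSO, 0.51 ± 0.18 (adjusted p = 0.0513), passed without GLI2 KO DMSO replicate 3 (0.72, adjusted p = 5.17e-07). It also passed with DESeq2, at a minimum count of 50 and without the furthest library of each group.

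**Figure D4:**
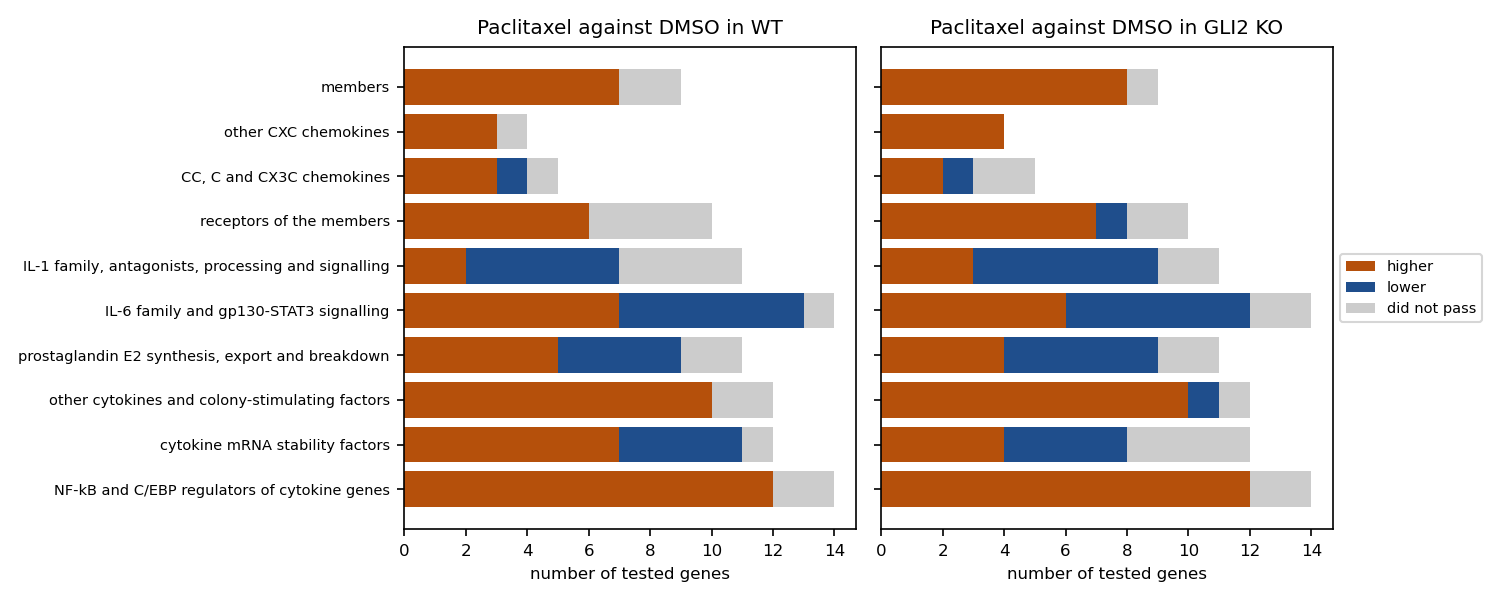
Number of tested genes (x axis) of the 10 mediators and of each of the 9 lists (y axis) that were higher, lower or did not pass with paclitaxel in WT (left) and GLI2 KO cells (right). The NF-kB and C/EBP list has 12 of 14 higher and 0 lower in both panels, and the IL-6 family list has 6 lower in both.

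Other secreted factors mostly rose with paclitaxel. Of the other CXC chemokines 3 of 4 rose in WT and 4 of 4 in GLI2 KO cells, with CXCL16, a membrane-anchored chemokine, at 1.25 ± 0.19 and 1.27 ± 0.20. Of 5 tested CC, C and CX3C chemokines 3 rose and 1 fell in WT, and 2 rose and 1 fell in GLI2 KO cells. CCL26, an eosinophil chemokine, rose by 2.14 ± 0.14 and 1.86 ± 0.16 and was lower in GLI2 KO cells in DMSO (-0.76 ± 0.18) and in paclitaxel (-1.03 ± 0.12). The call in DMSO was lost in both joint omissions of libraries (-0.53 to -0.46, adjusted p = 0.0533 to 0.235). CCL28 fell by 0.35 ± 0.07 and 0.31 ± 0.07, although the latter call was lost with library totals as the scaling. Of the other cytokines and colony-stimulating factors 10 of 12 rose and 0 fell in WT, and 10 rose and 1 fell in GLI2 KO cells. CSF2, which encodes GM-CSF, rose by 1.91 ± 0.11 in WT and 0.82 ± 0.10 in GLI2 KO cells. CSF2 was 1.10 ± 0.12 higher in GLI2 KO than in WT cells in DMSO, and the genotype difference in paclitaxel did not pass (0.01 ± 0.09). IL24 rose by 1.31 ± 0.39 and 3.01 ± 0.46. The IL24 call in WT cells was lost without WT paclitaxel replicate 1 (1.18, adjusted p = 0.0501). CSF1, the macrophage growth factor, rose by 0.76 ± 0.10 and 0.37 ± 0.10, the latter call being lost in a fit of the 2 groups alone (0.40, adjusted p = 0.0529). IL7 was higher in GLI2 KO cells by 2.21 ± 0.15 in DMSO and 2.03 ± 0.15 in paclitaxel. Between genotypes, 1 of the 4 other CXC chemokines was higher in GLI2 KO cells in paclitaxel. For the CC, C and CX3C chemokines the counts were 1 higher and 1 lower in DMSO, and 3 higher and 1 lower in paclitaxel. For the other cytokines they were 4 higher and 0 lower, and 2 higher and 1 lower.

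The signalling partners moved in both directions. Of 10 tested receptors 6 rose and 0 fell in WT, and 7 rose and 1 fell in GLI2 KO cells. IL6R, the IL-6 binding chain, rose by 0.62 ± 0.07 and 1.01 ± 0.07, and the prostaglandin E2 receptor gene PTGER3 by 2.65 ± 0.33 and 1.62 ± 0.25. In WT DMSO PTGER3 was near the floor, at 0.104 ± 0.066 CPM. PTGER2, another prostaglandin E2 receptor, was lower in GLI2 KO cells by -2.01 ± 0.12 in DMSO and -1.61 ± 0.11 in paclitaxel. PTGER4 fell by 0.48 ± 0.06 in GLI2 KO cells and did not pass in WT cells (-0.12 ± 0.06), where its sign turned under upper-quartile factors and library totals and the call was gained without GLI2 KO DMSO replicate 3 (-0.12, adjusted p = 0.0471). PTGER3 was higher in GLI2 KO cells in DMSO (1.71 ± 0.37) and in paclitaxel (0.68 ± 0.22). The latter call was lost without GLI2 KO paclitaxel replicate 3, WT paclitaxel replicate 2 or WT paclitaxel replicate 3 (0.46 to 0.64, adjusted p = 0.0563 to 0.146). Between genotypes 3 receptors were higher and 2 lower in DMSO, and 4 higher and 2 lower in paclitaxel. The ELR chemokine receptor genes CXCR1 and CXCR2 and the CCL20 receptor gene CCR6 had no row in the count table, so no level is given.

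Of the IL-6 family and gp130 pathway, 7 of 14 rose and 6 fell in WT, and 6 rose and 6 fell in GLI2 KO cells. IL11, a bone-active relative of IL6, fell by 0.92 ± 0.10 and 0.97 ± 0.10 while IL6 rose. CNTF rose by 2.04 ± 0.11 in WT and 0.80 ± 0.10 in GLI2 KO cells. EBI3 rose by 0.41 ± 0.13 and 1.10 ± 0.15 and was lower in GLI2 KO cells in DMSO (-1.09 ± 0.15). It was also lower in paclitaxel (-0.40 ± 0.13), a call lost without WT paclitaxel replicate 3 (-0.36, adjusted p = 0.0526). Of 11 tested genes of IL-1 relatives, processing and signalling, 2 rose and 5 fell in WT, and 3 rose and 6 fell in GLI2 KO cells. GSDMD, the pore protein through which IL-1 beta leaves cells, fell by 0.67 ± 0.04 and 0.60 ± 0.04. SIGIRR, an inhibitory receptor of the IL-1 family, fell by 1.04 ± 0.15 in WT and 0.42 ± 0.15 in GLI2 KO cells, the latter call being lost under upper-quartile factors, library totals and without GLI2 KO DMSO replicate 3 (-0.23, adjusted p = 0.193). IL18 and CASP4 were higher in GLI2 KO cells, by 0.55 ± 0.03 and 0.63 ± 0.05 in DMSO. Between genotypes, 5 genes of the IL-6 list were higher and 2 lower in DMSO, and 2 higher and 6 lower in paclitaxel. In the IL-1 list 4 were higher and 3 lower in DMSO, and 3 higher and 2 lower in paclitaxel.

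Of 11 tested genes of prostaglandin E2 synthesis, export and breakdown 5 rose and 4 fell in WT, and 4 rose and 5 fell in GLI2 KO cells. PLA2G4C, a phospholipase that can release arachidonic acid, rose by 2.71 ± 0.22 in WT and 4.18 ± 0.27 in GLI2 KO cells and was lower in GLI2 KO cells in DMSO (-1.58 ± 0.36). These values start from low DMSO levels, 0.370 ± 0.134 CPM in WT and 0.124 ± 0.059 CPM in GLI2 KO cells. The DMSO difference was -0.98 without the 3 libraries of largest mean distance, which leaves GLI2 KO DMSO at 1 sample. PTGES, the synthase that acts after cyclooxygenase-2, rose by 0.56 ± 0.15 and 0.70 ± 0.16. HPGD, which breaks prostaglandin E2 down, rose by 0.63 ± 0.11 in WT and was at 0.15 ± 0.10 in GLI2 KO cells, where it passed under upper-quartile factors, library totals and without GLI2 KO DMSO replicate 3 (0.25, adjusted p = 0.0277). Of 12 factors of cytokine mRNA stability 7 rose and 4 fell in WT, and 4 rose and 4 fell in GLI2 KO cells. ZFP36, tristetraprolin, which marks AU-rich cytokine transcripts for decay, rose by 0.92 ± 0.06 and 0.61 ± 0.06 and was lower in GLI2 KO cells in paclitaxel (-0.62 ± 0.06). ZC3H12A, the ribonuclease Regnase-1 that degrades IL6 transcripts, rose by 1.45 ± 0.08 in WT and was at 0.13 ± 0.08 in GLI2 KO cells, where it passed under upper-quartile factors, library totals and a minimum count of 50. In paclitaxel it was lower in GLI2 KO cells (-0.72 ± 0.07), and in DMSO higher (0.60 ± 0.08). Between genotypes, 3 genes of the prostaglandin list were higher and 2 lower in DMSO, and 4 higher and 2 lower in paclitaxel. Of the mRNA stability factors 3 were higher and 3 lower in DMSO, and 3 higher and 5 lower in paclitaxel.

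The genes whose profiles over the 12 samples were most like those of the members were found by the root mean square difference of log2 CPM, each profile centred on its own mean. CXCL2 was nearest to BIRC3, an apoptosis inhibitor that is also in the NF-kB list (0.17), and to RGCC (0.17). IL6 was nearest to TRIML2 (0.20) and SIPA1L2 (0.21), IL1B to LINC02577 (0.20) and SPMIP1 (0.22), and LIF to PDHX and DKC1 (both 0.04). PTGS2 was nearest to ASNS, asparagine synthetase (0.33), and CTH, cystathionine gamma-lyase (0.42), and CXCL8 to FAAH (0.41) and DUSP8 (0.44). CXCL3 was nearest to TRMT61A-DT (0.33) and HMOX1 (0.36). No close match was found for CXCL1 (AMY2B, 0.48, and ADCY10P1.2, also 0.48) and CCL20 (ADGRA3P1, 0.54, and PLAC8L1, 0.56). By mean absolute difference, SIPA1L2, LINC02577, DKC1, DUSP8, ADCY10P1.2 and PLAC8L1 were no longer among the 2 nearest genes. Among the members themselves CXCL2 and CXCL3 were the closest (0.38). The nearest member to PTGS2 was LIF at 0.69, and its furthest was CXCL1 at 1.54.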

How the data were processed

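Polyadenylated RNA from 12 samples in 4 groups was sequenced. Tools named in the submitters' processing notes, without roles, are STAR, Trim Galore 0.6.7 and DESeq2 1.36.0, with hg38 as the build. QIAzol extraction and qScript cDNA synthesis are given per the labels. The sources used here do not give the counting tool, the annotation or the strand setting. The authors' deposited table of counts holds unnormalised whole numbers for 25049 genes. The deposited table of normalised signal equals those counts over 1 size factor per sample (largest relative deviation 5.36e-15), and was not tested. Columns not used numbered 0, as did rows without a gene name.

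Counts were tested with edgeR 4.0.16 (quasi-likelihood, robust, TMM factors, filterByExpr with its minimum count of 10), which left 21974 genes, in 1 fit of all 12 samples with 8 residual degrees of freedom. Contrasts numbered 5, p-values were two-sided and adjusted by Benjamini-Hochberg over all tested genes within a contrast, and genes passed below 0.05. Standard errors are approximate, computed as the size of the log2 fold change divided by the root of F. An exact permutation test of 3 against 3 samples cannot go below p = 0.1, so none was run. The floor is 3 counts per library. Scripts were tested on simulated data. Levels per kb use GENCODE 29 exons. Promoters are RefSeq's, and identities come from Biopython 1.88 alignments.

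Alternative settings were scaling by RLE factors, upper-quartile factors or library totals, no filter, a minimum count of 50, DESeq2 1.42.0, limma-voom (limma 3.58.1), the 2 groups compared alone, and each library left out. The 2 joint omissions of libraries and a block on neighbouring library numbers were chosen after seeing the data. The members and lists were chosen with earlier results of these data known. From each list the text names up to 3 passing genes with the largest paclitaxel change and up to 2 with the largest genotype change, at 1 CPM or more in some group, and for each member the 2 genes most alike in profile at 1 CPM or more.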

Additional observations from a re-analysis of the deposited data

How the results depend on the processing

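The titles carry library numbers but do not state pairs. Over all tested genes, deviations from the group means correlated by -0.0278 to 0.0676 between the 6 neighbouring numbers, none above 0.1, and only in GLI2 KO cells did every sample correlate best with its neighbour. With neighbours as a replicate block, chosen after seeing the data, counts of members were 1 lower for paclitaxel in WT (PTGS2), and 2 higher (PTGS2, adjusted p = 1.77e-11, and CXCL8, adjusted p = 6.86e-10) and 1 lower (CXCL3, adjusted p = 0.0228) for the difference of effects. CXCL8 in WT and CXCL3 in GLI2 KO cells also passed with paclitaxel, and genotype contrasts cannot be had from that block. Shares of all genes that passed with that block were not counted. For the members, 889 log2 fold changes under other settings kept their direction and side of the threshold, 24 newly passed, 44 no longer passed and 35 changed sign. Upper-quartile factors moved the median of all genes by 0.13 and 0.12 and library totals by 0.16 and 0.18 (log2) in the paclitaxel comparisons in WT and GLI2 KO cells.

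Counts of members past the threshold ranged, with 1 library left out, from 0 to 2 higher and 0 to 2 lower for GLI2 KO against WT in DMSO, from 1 to 4 higher in paclitaxel, and from 0 to 1 lower for the difference of effects. Without the furthest library of each group they were 1 lower for paclitaxel in WT, 2 higher for genotype in DMSO, 4 higher in paclitaxel, and 2 higher and 1 lower for the difference. Without the 3 libraries of largest mean distance they were 5 higher for paclitaxel in GLI2 KO, 0 higher and 1 lower for genotype in DMSO and 1 lower for the difference, with GLI2 KO DMSO at 1 sample that is assumed to vary like the other groups. DESeq2 called 1 higher and 1 lower difference. Shares of all genes that passed under these settings were not counted. IL1A entered some of these fits. The cause was not tested.

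Sign changes were limited to values that had not passed. For the difference of effects they were CXCL1 (0.27 without the furthest libraries, 0.0216 without the 3 libraries, -1.71 to 0.15 with 1 left out), CCL20 (-0.89 to 0.43 with 1 left out), IL1B (-0.00706 with upper-quartile factors, -0.002405 with no filter, -0.26 without the furthest libraries, -0.23 to 0.51 with 1 left out) and LIF (-0.00821 with upper-quartile factors, -0.003686 with no filter, -0.006298 at a minimum count of 50, -0.0394 to 0.0467 with 1 left out). For GLI2 KO against WT in DMSO they were CXCL3 (-0.19 to 0.51 with 1 left out), CCL20 (-0.19 with limma-voom, -0.68 to 0.65 with 1 left out) and PTGS2 (0.0102 without the furthest libraries, -0.40 to 0.21 with 1 left out). In paclitaxel they were CXCL8 (-0.457 to 0.0246 with 1 left out) and CSF2 (-0.0214 with upper-quartile factors, -0.0637 to 0.132 with 1 left out). The remaining ones were paclitaxel in GLI2 KO cells for CXCL3 (-0.0353 without the 3 libraries) and in WT cells for PTGER4 (0.0158 with upper-quartile factors, 0.0389 with library totals). CXCL1, IL1A, IL1B and CCL20 rest on few counts, which limits their precision.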
